A study of Mus musculus with 34 samples.

Results

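The response of CD4+ spleen cells of 129X1/SvJ mice to the phorbol ester PMA and the calcium ionophore ionomycin is described here across all genes measured. The samples were chosen by title, and the 6 arrays whose titles name this inbred strain were taken from the 34 arrays of a study of 5 strains. The other strains were A/J, Balb/c, C57BL/6J and DBA/2J. Of the 6 arrays, 3 held cells at T0, labelled as untreated and in the basal state, and 3 held cells at T1, stimulated for 4 h with 10 ng/ml PMA and 1 uM ionomycin. All mice were female and 8 weeks old, and no engineered allele is given in the labels. Spleen cells were sorted on CD4 magnetic beads, kept in serum-containing medium and then split into the untreated and the stimulated portion. The sources used here do not settle whether the T0 portion also spent 4 h in culture. If it did not, time in culture and the drugs cannot be told apart. Replicates carry the numbers 1, 2 and 4 and are called biological, but the sources used here do not say whether a sample came from 1 mouse or from a pool.

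Each value is a log2 intensity of 1 probe set on 1 array, so that a difference of 1 is a doubling of signal. Where a gene had several probe sets, the one with the highest overall mean stood for it, and 11413 of 19938 genes were kept because at least 1 group mean reached the median of all values (5.327). A mean below this limit was not shown to lie above background, so no linear fold is given where either time had such a mean. Its log2 difference is then printed as measured. It is a lower estimate of a change from or to a level above the limit, and has no size where both means lay below it. Of the 259 genes named for their response, 37 had a mean below it at one time or both. The medians of the 6 arrays ran from 5.31 to 5.35, because the authors' normalization makes arrays alike, and each change is therefore relative to the other genes on the array. Over the genes kept, arrays of the same time correlated at 0.985 to 0.988 at T0 and 0.985 to 0.987 at T1, against 0.827 to 0.871 between the times. No 129X1/SvJ array stood apart from the others of its time. Among the other strains' arrays, that labelled Balb/c T1 number 2 correlated at 0.945 and 0.951 with the rest of its group, below the 0.974 or more within every other group, and counts that use it are given with and without it.

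As background, PMA stands in for diacylglycerol and activates protein kinase C and Ras, while ionomycin carries calcium into the cell and activates calcineurin. Together they bypass the T cell receptor and switch on the transcription factors NFAT, AP-1 and NF-kappaB, which drive cytokine genes. Helper T cells leaving the resting state also enlarge, making ribosomes, nucleotides and amino acid transporters, and they lose receptors that mark resting, recirculating cells.

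The comparison of T1 with T0 asks which genes changed in 129X1/SvJ cells. It called 6427 of 11413 genes (56.3%) at an adjusted p under 0.05, of which 2465 (21.6%) were higher and 3962 (34.7%) lower at T1. A second quantile normalization gave 3145 higher and 3564 lower, so the excess of falls was smaller under that scaling. Changes of at least 1 log2 were fewer, with 823 genes higher (7.21%) and 1255 lower (11%). The balance turned with size. At 2 log2 or more there were 182 rises and 149 falls, at 3 or more 49 and 13, and at 4 or more 15 and 1. For 7188 genes (63%) the 3 T1 arrays all lay on one side of the 3 T0 arrays. Over all 11413 genes, 9086 moved the same way in all 3 numbered pairs. Of the 6427 called genes 6405 did, but they were called from the same arrays, so this is no separate support. The median difference over all genes kept was -0.06, and the median standard error (SE) was 0.142. A test against a change of 1 log2, which asks for more than a change from 0, called 873 genes, with 426 higher and 447 lower. The counts of each gene list below are to be read against the 21.6% of all genes that rose and the 34.7% that fell.

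**Figure D1:**
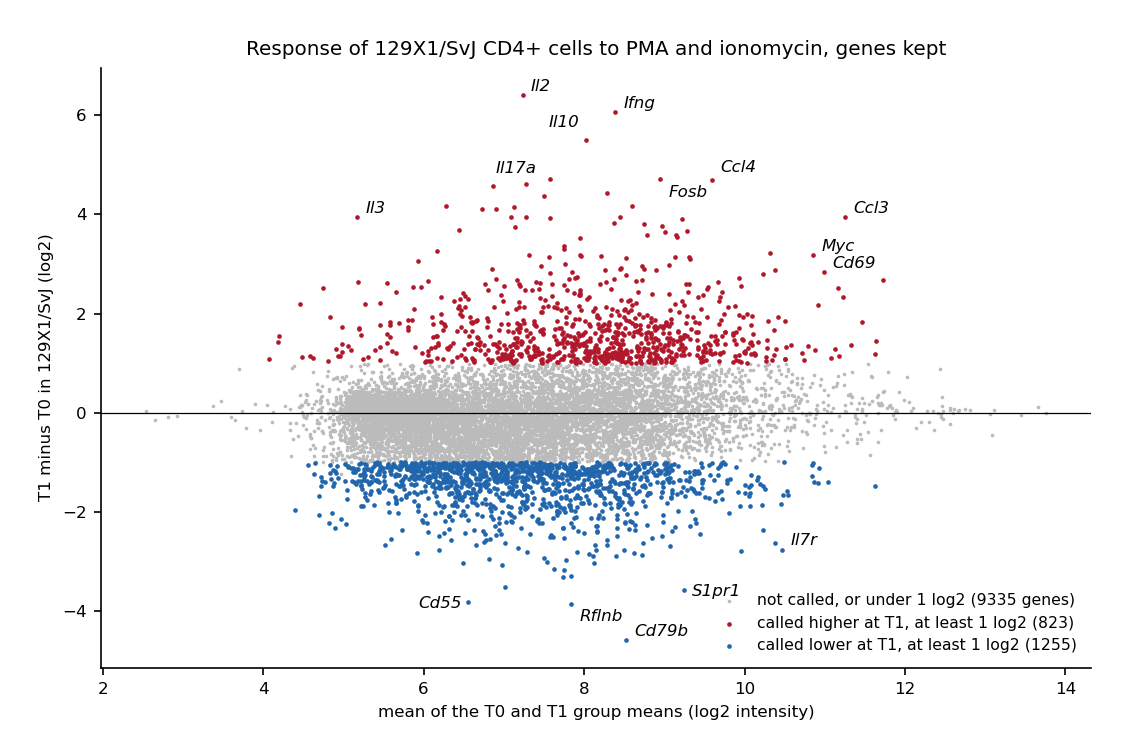
T1 minus T0 in 129X1/SvJ (log2, vertical axis) against the mean of the 2 group means (log2 intensity, horizontal axis), 1 point for each of 11413 genes. Red and blue points are the 823 genes called higher and the 1255 called lower by at least 1 log2, and the rises reach 6.41 for Il2 while the falls end at -4.59 for Cd79b.

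The cytokine promoters are shown first because cytokine genes held most of the largest rises. The sequences are RefSeq's, assembly GRCm38.p6, which represents C57BL/6J and not 129X1/SvJ, and each covers the 250 bases before the most upstream start listed. Capitals mark matches, on either strand, to NFAT (GGAAAA), AP-1 (TGANTCA), the TATA box (TATAAA) and the kappaB site. Il2 lies at chr3:37125955-37126204 on the minus strand, Il4 at chr11:53618666-53618915 on the minus strand, Il17a at chr1:20730655-20730904 on the plus strand and Lif at chr11:4257318-4257567 on the plus strand.
Il2: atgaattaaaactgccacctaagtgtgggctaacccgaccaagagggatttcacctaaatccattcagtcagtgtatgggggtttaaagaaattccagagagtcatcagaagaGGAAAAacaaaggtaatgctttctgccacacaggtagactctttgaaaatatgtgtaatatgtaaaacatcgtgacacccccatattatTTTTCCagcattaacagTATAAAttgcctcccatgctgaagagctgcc
Il4: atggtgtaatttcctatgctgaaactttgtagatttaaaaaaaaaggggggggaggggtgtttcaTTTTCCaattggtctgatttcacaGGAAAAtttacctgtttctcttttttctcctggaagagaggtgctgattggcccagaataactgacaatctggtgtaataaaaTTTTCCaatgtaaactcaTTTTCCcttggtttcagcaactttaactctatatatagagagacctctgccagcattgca
Il17a: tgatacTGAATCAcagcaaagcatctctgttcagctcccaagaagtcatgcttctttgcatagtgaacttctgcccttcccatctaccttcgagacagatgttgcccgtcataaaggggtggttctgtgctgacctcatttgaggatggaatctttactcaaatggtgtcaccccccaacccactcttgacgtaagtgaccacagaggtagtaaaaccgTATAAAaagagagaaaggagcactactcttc
Lif: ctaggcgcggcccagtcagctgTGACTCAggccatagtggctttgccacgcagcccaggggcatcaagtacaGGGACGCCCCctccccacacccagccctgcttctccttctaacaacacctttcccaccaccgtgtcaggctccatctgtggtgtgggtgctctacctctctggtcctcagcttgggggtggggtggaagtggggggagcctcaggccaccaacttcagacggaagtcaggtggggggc
The Il2 window holds 2 NFAT matches and a TATA box, the Il4 window 4 NFAT matches, the Il17a window 1 AP-1 match and a TATA box, and the Lif window 1 AP-1 match and 1 kappaB match. In Il4, matches to the CCAAT box and to the interferon-stimulated response element were not themselves marked. The response element match and some CCAAT matches overlap NFAT matches, and the shared bases are in capitals. A match is a run of letters and not a measured binding site.

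Promoter windows were found for 9113 of the 11413 genes. Among the 17 cytokine genes with a window, 41.2% held an NFAT match against 18.1% of all windows, 23.5% an AP-1 match against 4.18%, and 41.2% a TATA box against 6.58%. The cytokine windows were also poorer in G and C, with a median of 47.6% against 60% of all windows, which bears on how often these AT-rich letters occur. Of the 13 windows among the 15 genes with the largest rises, 53.8% held a TATA box. The 28 ribosome biogenesis windows held no AP-1 match and a TATA box in 7.14%. Over all genes that rose by at least 1 log2 the shares were near those of all windows, with NFAT in 20.1%, AP-1 in 6.07% and the TATA box in 8.47% of 626 windows. Genes that rose by at least 2 log2 held a kappaB match in 15.9% of 138 windows, against 8.9% of all. The windows of AP-1, Egr and Nr4a genes held an Egr match (by name) in 27.3% and a kappaB match in 31.8% of 22, against 4.64% and 8.9%. Their median share of G and C was 65.8% against 60% of all windows, which bears on how often these GC-rich letters occur. These shares are descriptions, with no test.

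Cytokine genes gave the largest rises. Of 19 cytokine genes tested, 16 rose and 2 fell, with a median difference of 3.94 log2. The T0 means of 13 of the 19 lay under the limit, and a gene that passes the filter through its stimulated level had to differ. Without the filter, 17 of the 21 cytokine genes with a probe set rose and 2 fell (median 3.80), where 13.9% of all 19938 genes rose. Il2 (probe set 10497878), the growth factor that T cells make for themselves, measured 4.15, 4.18 and 3.75 on the T0 arrays and 10.31, 10.86 and 10.15 on the T1 arrays, a rise of 6.41 (SE 0.22, adjusted p = 8.2e-20). Every T1 array was far above every T0 array, and the T0 values sat under the limit, so the size of the rise is a lower estimate. Ifng, the macrophage-activating interferon of type 1 helper cells, measured 5.63, 5.36 and 5.06 at T0 and 11.31, 11.74 and 11.20 at T1, a rise of 6.07 (SE 0.21). Its T0 mean of 5.35 barely passed the limit. Il10, which restrains inflammation, rose from 5.22, 4.75 and 5.83 to 10.64, 10.67 and 11.02, by 5.51 (SE 0.25).

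The type 17 cytokines rose together. Il17a, which recruits neutrophils through epithelial cells, went from 5.18, 5.24 and 5.23 to 9.70, 10.49 and 9.60, by 4.71 (SE 0.27). Its relative Il17f went from 5.18, 5.17 and 4.55 to 9.33, 9.88 and 9.57, by 4.62 (SE 0.25). Il21, which helps B cells and type 17 cells, rose by 4.57 (SE 0.36), with the T1 array of number 2 at 9.66 against 8.83 and 8.98 on the others. In these genes the T1 array of number 2 was the highest, as it was for Il2 and Ifng. Lif rose by 4.36 and Csf2, the granulocyte and macrophage growth factor, by 4.17, both from T0 means under the limit. The T0 means of Il10, Il17a, Il17f and Il21 lay under it as well.

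Among type 2 cytokines, Il13 rose by 4.14 from a mean under the limit, and Il4, which steers helper cells to the type 2 fate, rose from 7.31, 6.44 and 6.81 to 10.64, 10.88 and 10.44 (13.9-fold, 3.80 log2, SE 0.28). Tumor necrosis factor, Tnf, rose 7.34-fold, from 7.33, 7.22 and 7.83 to 10.38, 10.40 and 10.24. The falls were Ltb, a membrane lymphotoxin chain, at -2.48 (SE 0.27) and Il16, a ligand of CD4, at -1.31. Osm gave 0.22 and was not called. In Ltb the T1 arrays spread widely, at 7.87, 6.87 and 6.78, and still lay below the T0 arrays at 9.81, 9.62 and 9.53.

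**Figure D2:**
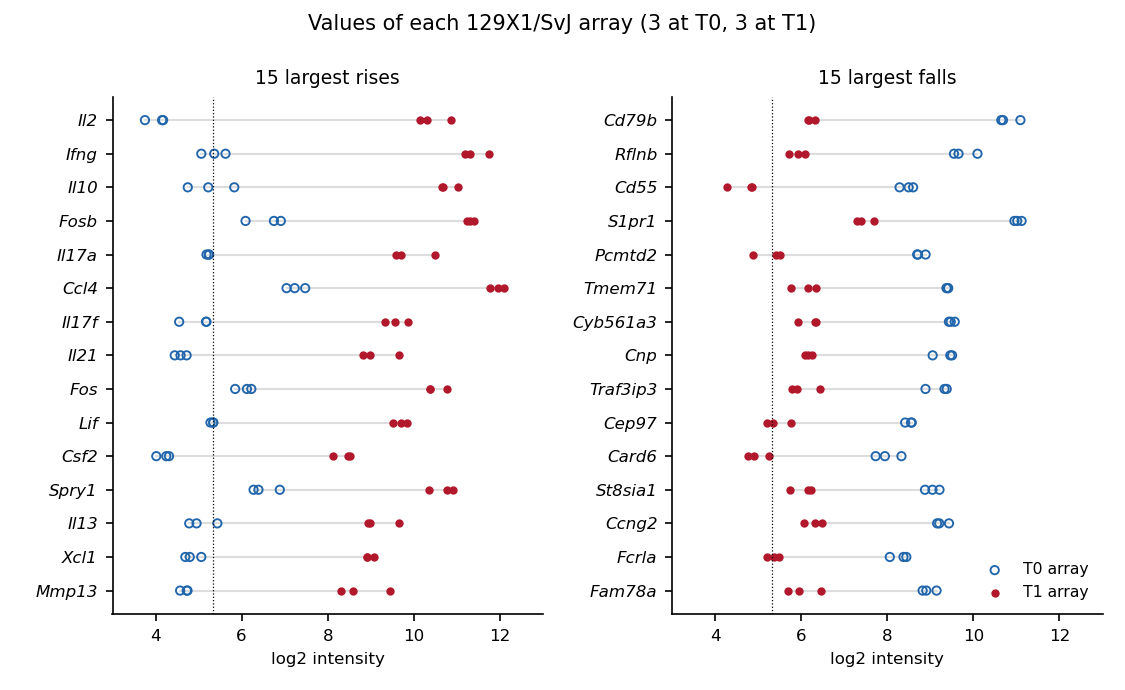
Log2 intensity (horizontal axes) of each 129X1/SvJ array for the 15 largest rises and the 15 largest falls, with open blue circles for the 3 T0 arrays, red points for the 3 T1 arrays and a dotted line at the limit of 5.327. The 30 genes were chosen among called genes whose arrays of the 2 times do not overlap. Of the 15 rises, 10 start from a T0 mean under the limit.

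Of 12 chemokine genes, 9 rose and 3 were not called (median 1.95). Without the filter 9 of 13 rose. Ccl4, an inflammatory chemokine, rose 25.9-fold, from 7.04, 7.23 and 7.48 to 11.77, 12.10 and 11.96. Its neighbour Ccl3 rose 15.4-fold, and its T0 arrays spread from 8.83 to 9.74 while its T1 arrays lay between 13.11 and 13.34. Xcl1, which attracts cross-presenting dendritic cells, rose by 4.12 from a mean under the limit. Ccl5 (-0.11), Cxcl10 (0.14) and Cxcl16 (-0.28) were not called. Of 8 ligands of the tumor necrosis factor superfamily, 6 rose and 2 were not called (median 1.67), and without the filter 6 of 10 rose. Cd40lg, with which helper cells activate B cells, rose by 3.82, Tnfsf14 by 2.56 and Tnfsf8 by 2.04, while Tnfsf4 and Tnfsf10 gave 0.03 and -0.32. In the granule list, 4 of 7 genes rose and 2 fell. Gzmb, a granule protease, rose by 3.95 from 4.86, 5.12 and 5.35 to 8.79, 9.06 and 9.34, whereas Gzmk gave -1.40 and Ctsw -1.65.

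Early transcription factors rose almost throughout. Of 13 AP-1 subunits, 11 rose and 2 were not called (median 2.16). Fosb rose 26.4-fold from 6.91, 6.09 and 6.75 to 11.39, 11.30 and 11.23, and Fos 21.7-fold from 6.23, 5.85 and 6.12 to 10.77, 10.37 and 10.38. The T1 arrays of Fosb differed by less than its T0 arrays did. Atf3, induced by stress and mitogens, rose by 3.78, whereas Jund (-0.18) and Batf3 (0.42, adjusted p = 0.0238 with the numbered pairs as a block) were not called. Of 14 Egr, Nr4a and related early genes, 12 rose and 2 were not called (median 1.69). Nr4a2, an orphan nuclear receptor, rose by 3.96, and Egr2, a zinc-finger factor that also limits T cell activation, rose 12.0-fold from 7.45, 7.04 and 7.58 to 10.96, 10.97 and 10.89. Nab1 and Nab2, which bind and repress Egr proteins, gave 0.23 and 0.19 and were not called.

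In the NF-kappaB pathway 7 of 17 genes rose (41.2%), 6 fell (35.3%, near the 34.7% of all genes) and 4 were not called. The largest rises were those of Nfkbid, Nfkbiz and Tnfaip3. Nfkbid, a nuclear member of the inhibitor family, rose 9.34-fold from 8.66, 8.48 and 8.96 to 11.85, 11.95 and 11.98, Nfkbiz rose by 2.53, and Tnfaip3, an enzyme that shuts the pathway off, by 2.51. The lower genes included Cyld (-1.71), a deubiquitinase that restrains the pathway, Tnip1 (-1.20) and Ikbkb (-0.99), a kinase that starts it. Rela (0.09), Relb (-0.03), Nfkb2 (0.20) and Traf1 (0.12) were not called. Among interferon regulatory factors, STATs and Janus kinases, 6 of 17 rose and 10 fell. Irf4, needed for expansion and effector function, rose by 2.80, Irf8 by 1.78 and Jak2 by 1.30. Irf2 (-1.62), Irf7 (-1.54) and Stat2 (-1.07), the last of these a part of the type I interferon signal, fell.

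Of 24 cytokine receptor genes, 6 rose and 15 fell, a share of falls of 62.5% where 34.7% of all genes fell. Il2ra, the inducible chain of the interleukin 2 receptor, rose 11.7-fold from 7.37, 7.25 and 7.52 to 10.85, 10.96 and 10.96. Il15ra rose by 1.82 and Il23r by 1.41. Il7r, the receptor for the survival signal of resting T cells, fell from 11.83, 11.89 and 11.80 to 9.06, 9.11 and 9.09 (6.77-fold), and its arrays differed by less than 0.1 within each time. Il18r1 gave -2.73 and Ifngr1, the ligand-binding chain for interferon gamma, -2.34. Tgfbr1 (0.26, adjusted p = 0.0351 with the pairs as a block), Il21r (0.20) and Il2rb (0.20) were not called.

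Activation and inhibitory receptors mostly rose, with 15 of 22 higher, 3 lower and 4 not called (median 1.08). Slamf1, a self-binding co-receptor, rose 12.0-fold from 7.03, 6.93 and 7.01 to 10.46, 10.79 and 10.45. Slamf7 rose by 2.98 and Cd69, which holds activated cells in lymphoid tissue, by 2.83 (9.53, 9.44 and 9.77 to 12.31, 12.39 and 12.53). The falls were Slamf6 (-2.25), Tnfrsf14 (-0.96) and Cd27 (-0.54). Icos (0.29), Pdcd1 (0.35), Tnfrsf1a (0.22) and Tnfrsf18 (0.06) were not called. Feedback regulators of MAP kinase and cytokine signals rose in 19 of 25 cases, with 2 lower and 4 not called (median 1.22). Spry1, an inhibitor of Ras signalling, rose 17.9-fold, the MAP kinase phosphatase Dusp4 by 2.91, and Cish, which damps STAT5 signals, by 2.88. Dgka, which removes diacylglycerol, gave -1.47 and Dusp10 -0.37. The call on Dusp10 was lost without the T0 array of number 1 or the T1 array of number 2 or 4 (adjusted p up to 0.109).

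Genes of the T cell receptor pathway mostly fell, with 15 of 23 lower, 4 higher and 4 not called (median -0.42). The adaptor Grap2 gave -2.38, Cd3g -2.01 and Ubash3a, a negative regulator, -1.54. Cd3g fell from 10.86, 10.77 and 10.81 to 8.89, 8.61 and 8.90, while Cd3e, another chain of the same complex, gave -0.60. Cd4 itself measured 9.42, 9.30 and 9.43 at T0 and 8.55, 7.96 and 8.31 at T1, a 2.16-fold fall (SE 0.15 log2, adjusted p = 2.29e-07). Malt1, a protease of the NF-kappaB branch, rose by 1.47, Zap70, the kinase at the receptor, by 1.10 and Fyn by 0.43. Fyn lost its call after a second quantile normalization (0.13, adjusted p = 0.186). In the calcium and NFAT list, 10 of 17 genes fell and 4 rose. The store-operated channel subunit Orai1 rose by 1.27 and Rcan1, a feedback inhibitor of calcineurin, by 0.82. Nfatc3 (-1.37), the calcineurin subunit Ppp3ca (-1.28) and Rcan3 (-1.23) fell.

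Growth genes rose as a block. Of 33 ribosome biogenesis genes, 32 rose and none fell (median 1.55), where 21.6% of all genes rose. Rrp1b went from 6.67, 6.46 and 7.01 to 9.21, 9.07 and 9.31 (5.59-fold), Gnl3 rose by 2.34 and Rrp9 by 2.27. Wdr12 alone of the 33 was not called (0.16). Myc, the factor that drives such genes in many cells, rose 9.07-fold from 9.21, 9.26 and 9.31 to 12.52, 12.48 and 12.32. In the Myc and Max network 4 of 11 genes rose and 4 fell. Mnt and Tfap4 rose by 0.45 each, Max (0.00) was not called, and Mxd4, a repressor that competes for Max, fell by 1.86. Of 24 enzymes of nucleotide, polyamine and one-carbon metabolism, 17 rose, led by Psat1 (2.66), Ctps (2.60) and Shmt1 (2.57). The single fall was Tyms (-0.55), the thymidylate synthase used in the DNA synthesis phase, and the ribonucleotide reductase genes Rrm1 (-0.50) and Rrm2 (-0.39) were not called, although both were with the pairs as a block (adjusted p = 0.00186 and 0.0378).

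Supply of amino acids and protein making followed the same direction. Of 16 genes of amino acid transport and stress response, 13 rose and 3 were not called (median 1.41), among them the transporter Slc7a1 (2.59), asparagine synthetase Asns (2.44) and Slc7a5 (2.26). Of 18 aminoacyl-tRNA synthetases, 16 rose, led by Yars (1.77), Tars (1.74) and Iars (1.61), whereas Qars fell (-0.64). Chaperones rose in 18 of 21 cases with a smaller median of 0.85, led by the mitochondrial Hspd1 and Hspa9 at 1.36 each. The proteasome list was split. Of 31 genes 13 rose, the largest being Psme3 at 1.01, and the 3 that fell were the inducible immunoproteasome subunits Psmb10 (-1.54), Psmb8 (-1.36) and Psmb9 (-0.67).

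Lipid and sugar metabolism showed opposite members. Of 19 cholesterol genes 14 rose and 4 fell. The synthesis enzymes Idi1 (2.20), Sqle (1.99) and Cyp51 (1.93) rose. Abca1, which exports cholesterol, fell from 8.02, 7.89 and 8.04 to 5.83, 5.54 and 5.25 (5.43-fold), and Mylip, which degrades the LDL receptor, gave -1.86 and the exporter Abcg1 -0.88. The remaining fall was the synthesis enzyme Dhcr7 (-0.38), whose call was lost without the T0 array of number 1 or the T1 array of number 2 (adjusted p up to 0.193). In glycolysis 10 of 20 genes rose, led by hexokinase Hk2 (2.72), the lactate carrier Slc16a1 (2.44) and Pgam1 (1.40), and Taldo1 (-0.79) and Slc16a3 (-0.46) fell. Slc16a3 lost its call without the T0 array of number 4 or the T1 array of number 1 or 2 (adjusted p up to 0.279). The respiratory chain lay near the shares of all genes, with 6 of 26 higher (23.1%) and 10 lower (38.5%). Cytochrome c, Cycs, rose by 1.24, and Sdha (-1.11) and Nnt (-1.03) fell.

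Of 28 genes of cell division, 4 rose (14.3%) and 11 fell (39.3%), near the shares of all genes. The higher members were those of the first growth phase, Ccnd2 (2.34), Cdk6 (2.17) and Cdk4 (0.54), together with Pcna (0.36). Pcna lost its call after a second quantile normalization (0.10, adjusted p = 0.398) and without both arrays of number 1 (adjusted p = 0.0506). The largest falls were in brakes on the cycle, Rbl2 (-2.32), Cdkn1b (-1.82) and Rb1 (-1.59). Top2a, Mki67 and Ccna2, which mark dividing cells, gave -0.56, -0.96 and -0.87 and were not called. With the numbered pairs as a block all were called lower (adjusted p = 0.00301, 0.000644 and 5.71e-06). In the Bcl2, death and p53 list 6 of 21 rose (28.6%) and 7 fell (33.3%), also near those shares. Gadd45b rose by 2.88, Bcl2l1, which protects from apoptosis, by 2.74 and Gadd45g by 1.38, while Sesn1 (-1.85), Ccng1 (-1.59) and Sesn3 (-1.52) fell.

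**Figure D3:**
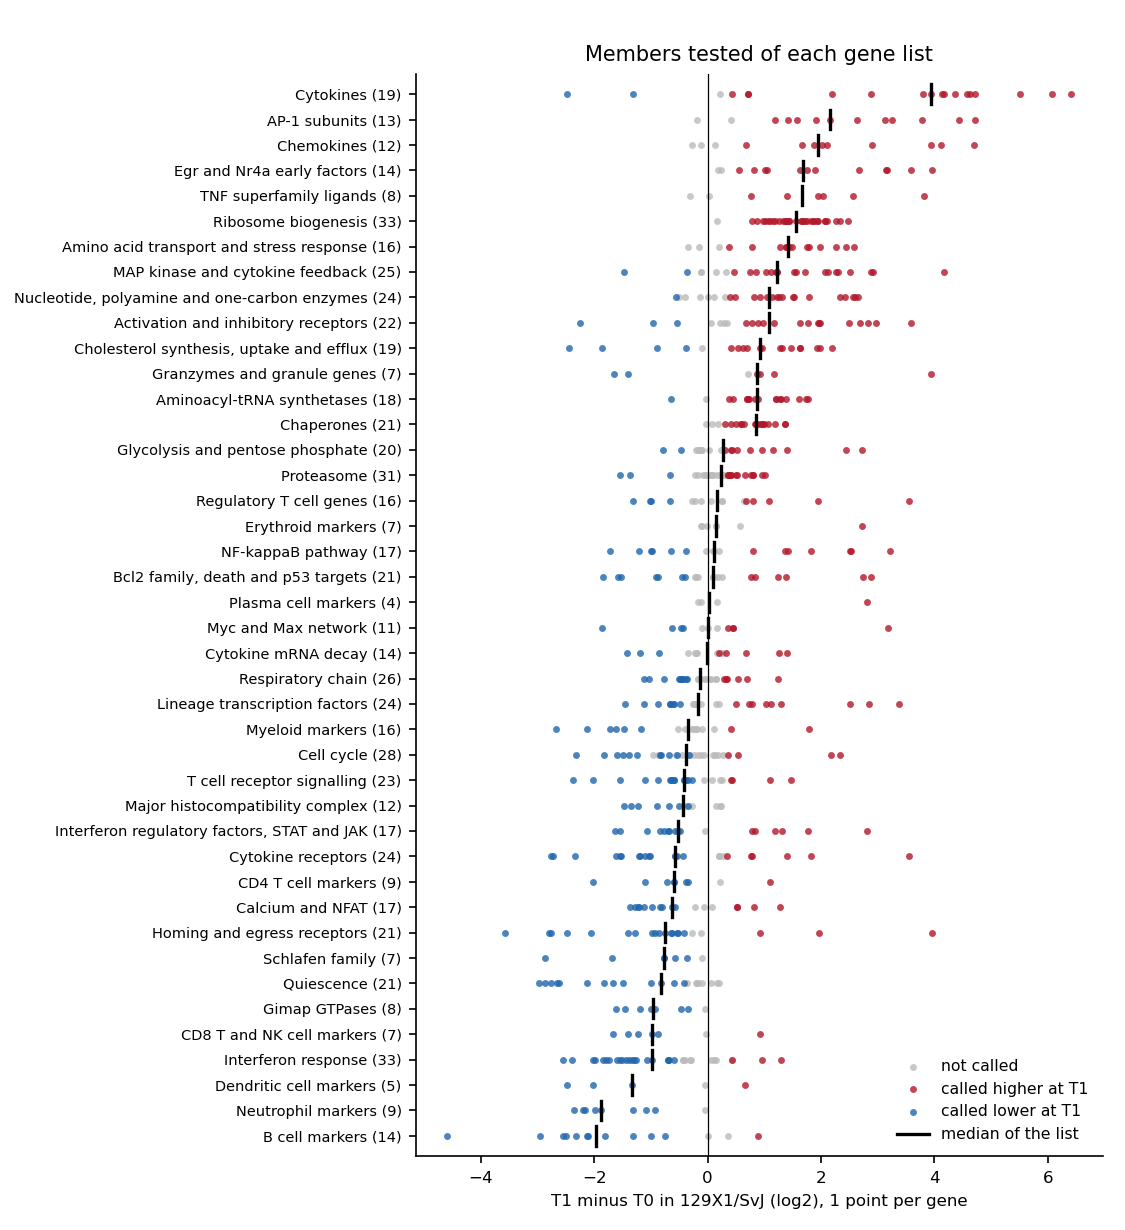
T1 minus T0 in 129X1/SvJ (log2, horizontal axis) of each gene tested, for lists with at least 4 genes tested, sorted by the list median (black bar). Red and blue points are called higher and lower and grey points are not called, and the medians run from -1.96 for B cell markers to 3.94 for cytokines, against -0.06 for all genes.

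Genes of the resting state fell or were not called. In the quiescence list 13 of 21 genes fell and none rose (median -0.82). Ccng2, an inhibitor-like cyclin, fell from 9.43, 9.16 and 9.21 to 6.49, 6.06 and 6.31 (7.88-fold), Slfn1 gave -2.87 and Il7r -2.76. Foxo1 (0.21), Foxp1 (0.06), Tob1 (0.17) and Bcl2 (-0.17) were not called. In the Schlafen family 6 of 7 fell and Slfn2 (-0.10) was not called. Without the filter 4 of these 7 were called lower. Of 8 Gimap GTPases, which support lymphocyte survival, 7 fell, led by Gimap3 (-1.62), and Gimap5 (-0.05) was not called. Homing and egress receptors fell in 16 of 21 cases (median -0.75). S1pr1, which guides T cells out of lymphoid organs, fell from 11.02, 10.95 and 11.12 to 7.68, 7.30 and 7.38 (11.9-fold), Itga4 gave -2.80 and S1pr4 -2.76. The members that rose were Ccr8 (3.96), a receptor of type 2 and regulatory cells, Gpr183 (1.97), a receptor for oxysterols, and Ccr4 (0.92).

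Among lineage transcription factors 9 of 24 rose (37.5%) and 8 fell (33.3%, near the share of all genes). Tbx21, the factor of type 1 cells, rose 10.3-fold from 6.07, 5.89 and 6.23 to 9.43, 9.31 and 9.57, Zbtb32 by 2.84 and the aryl hydrocarbon receptor Ahr by 2.51. Lef1 (-1.45), Zbtb7b (-1.13), which fixes the CD4 lineage, and Eomes (-0.88) fell. Foxp3, the factor of regulatory T cells, gave -0.11 (SE 0.22, adjusted p = 0.692), with T0 arrays at 7.97, 7.92 and 7.61 and T1 arrays at 7.93, 7.88 and 7.35 that overlapped. The regulatory T cell list had 16 genes tested, 5 higher and 4 lower. Il2ra and Ctla4 (1.94), which all activated T cells also raise, led the rises, and Nt5e (-1.32), Nrp1 (-1.02) and Entpd1 (-0.99) fell. Nrp1 lost its call without the T0 array of number 1 or the T1 array of number 2 (adjusted p up to 0.0705), and Entpd1 without the T0 array of number 4 (0.0762).

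In the interferon response list 21 of 33 genes fell (63.6%, where 34.7% of all genes fell), 3 rose and 9 were not called (median -0.98). Ifit3, a cytosolic antiviral protein, went from 7.02, 7.44 and 6.16 to 4.47, 4.21 and 4.28, a difference of -2.55 (SE 0.42). Its T0 array of number 4 was the lowest of that time, and all T1 arrays lay under the limit. Samd9l gave -2.39 and Mx2 -2.02. Gbp5 (1.29), Ifih1 (0.97) and Gbp3 (0.43) rose, although Gbp3 lost its call without the T0 array of number 1 or 4 or the T1 array of number 1 or 2 (adjusted p up to 0.166). In the major histocompatibility complex list 7 of 12 fell and none rose. Ciita (-1.48), the switch of class II genes, Tapbp (-1.35) and H2-DMa (-1.23) fell, while the class II chains H2-Aa (0.15) and H2-Eb1 (0.22) and the invariant chain Cd74 (-0.27, adjusted p = 0.03 with the pairs as a block) were not called.

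Markers of other cells were present at T0, and most of the B cell and neutrophil markers moved with time. RNA of cells other than CD4+ T cells was thus on the arrays after the sort. The B cell list had a median of -1.96, with 11 of its 14 markers lower and 1 higher, and their summed linear signal was 5460 to 7891 at T0 and 2213 to 2775 at T1. Cd79b, which signals for the B cell's antigen receptor, was the largest fall of all, from 10.69, 10.65 and 11.09 to 6.33, 6.18 and 6.16 (24.0-fold). Btk, a kinase of the same receptor, gave -2.56, Cr2 rose by 0.89, and Ebf1 (0.36, adjusted p = 0.0244 with the pairs as a block) and Cd72 (0.00) were not called. Cr2 lost its call without any 1 of 5 arrays, that is every array but the T0 array of number 4 (adjusted p up to 0.108). No B cell marker had a T0 mean under the limit, and 2 did at T1. In bulk RNA, fewer cells of a type and less RNA per cell cannot be told apart. Of 9 neutrophil markers 8 fell (median -1.88), with a summed signal of 994 to 1413 at T0 and 297 to 375 at T1, and 5 of the 9 had T1 means under the limit. Lcn2 (-2.35), Ngp (-2.19) and Ltf (-2.17) led them, and Mpo (-0.05) was not called.

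Of 16 myeloid markers 6 fell, 2 rose and 8 were not called, with a summed signal of 4018 to 6350 at T0 and 1465 to 2679 at T1. Clec7a (1.79) and Cebpb (0.42, adjusted p up to 0.0727 without the T0 array of number 1 or 2) rose and Ms4a6c (-2.67), Mpeg1 (-2.13) and Ctss (-1.72) fell. Of 7 CD8 T and NK markers 5 fell and 1 rose, and their sum went from 522 to 561 down to 344 to 356. The T1 means of 4 of the 7 lay under the limit, as did 1 mean at T0. Cd8a gave -1.23. Of 5 dendritic cell markers 3 fell and 1 rose, and 3 had T1 means under the limit. Of 4 plasma cell markers only Irf4, which T cells also induce, rose. The erythroid and platelet markers were not called apart from Tfrc (2.72), the transferrin receptor that dividing cells of many kinds raise. The sum of the 9 CD4 T cell markers also fell, from 6897 to 7633 at T0 to 4622 to 5633 at T1, with 7 of 9 lower. Each list of falling genes above can hold RNA of these other cells, and their part in those falls was not tested.

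The remaining largest falls were of mixed function. Rflnb, a filamin partner, fell from 10.10, 9.66 and 9.55 to 6.08, 5.72 and 5.93 (14.5-fold). Cd55, which protects cells from complement, fell by 3.81 on the log2 scale, from 8.29, 8.60 and 8.50 to values under the limit. Pcmtd2 gave -3.50, Tmem71 -3.31, Cyb561a3 -3.30, Cnp -3.18, Traf3ip3 -3.16, Cep97, a protein that restrains cilia, -3.07, Card6 -3.02, St8sia1, a ganglioside synthase, -3.01, Fcrla, a B cell protein, -2.95 and Fam78a -2.93. Every T1 array of these genes lay below every T0 array, which was a condition of their choice. Mmp13, a collagenase, was the other gene among the largest rises, at 4.10, with its T1 array of number 4 at 9.45 against 8.58 and 8.31.

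The array also carries probe sets placed on microRNA genes. They measure labelled transcript over the hairpin region or its host, not the mature molecule. These genes were picked out after their values were seen. The mature sequences of some of the larger changes show which products the changing loci encode. The seed (bases 2 to 8) is in capitals, and the sequences are RefSeq's for GRCm38.p6. Some genes left out changed by more than Mir181b-1 and Mir142, whose sequences are given.
miR-155-5p: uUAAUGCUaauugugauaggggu
miR-17-5p: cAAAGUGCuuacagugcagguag
miR-20a-5p: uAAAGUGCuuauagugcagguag
miR-18a-5p: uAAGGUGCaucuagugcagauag
miR-19a-3p: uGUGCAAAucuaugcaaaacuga
miR-19b-3p: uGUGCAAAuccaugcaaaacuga
miR-342-3p: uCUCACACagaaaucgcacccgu
miR-181b-5p: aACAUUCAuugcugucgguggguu
miR-142a-3p: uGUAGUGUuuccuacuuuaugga
miR-17-5p and miR-20a-5p share a seed, and so do miR-19a-3p and miR-19b-3p, while each other seed shown stands alone among them.

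Of 100 microRNA genes kept, 34 were called (34%), below the 56.3% of all genes, with 25 higher and 9 lower. Mir155, which promotes helper cell responses, rose 14.9-fold from 7.27, 7.30 and 7.26 to 11.01, 11.28 and 11.24 (SE 0.13 log2, adjusted p = 6.2e-20). Its 3 T0 arrays were nearly equal. The genes of the Mir17 to Mir92a cluster lie together on chromosome 14 and are made from 1 host transcript. The members given here rose by like amounts, and no value is given for Mir92a. Mir17 rose from 6.42, 6.15 and 5.95 to 8.93, 9.15 and 8.87 (2.81), Mir18 by 2.91, Mir19a by 3.0, Mir20a by 2.93, Mir19b-1 by 2.77 and the host Mir17hg by 2.35. These probe sets share a precursor and do not count as separate events. Mir342 fell from 7.73, 7.83 and 6.95 to 5.26, 5.41 and 5.63 (4.20-fold). Mir181b-1, of a family that tunes receptor sensitivity, gave -1.77 and ended under the limit at T1, and Mir142, a blood cell microRNA, gave -1.36.

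**Figure D4:**
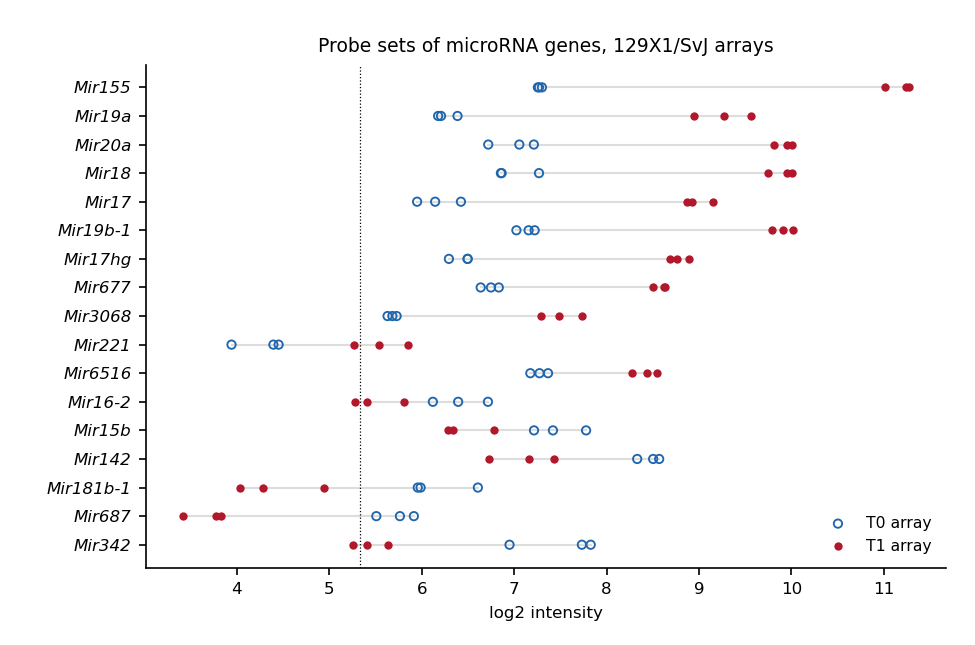
Log2 intensity (horizontal axis) of the 129X1/SvJ arrays for probe sets of microRNA genes with a difference of at least 0.9, with open blue circles for T0, red points for T1 and a dotted line at the limit of 5.327. Mir155 lies at 7.26 to 7.30 at T0 and 11.01 to 11.28 at T1. Mir17, Mir18, Mir19a, Mir20a, Mir19b-1 and the host Mir17hg rise by 2.35 to 3.0.

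The comparison with the other strains asks where the response of 129X1/SvJ differed. The difference between its response and the mean response of the other 4 strains was called for 223 of 11413 genes (1.95%), 135 higher (1.18%) and 88 lower (0.771%). With the numbered pairs as a block the count was 350, with 176 higher and 174 lower. It was 148 without the 129X1/SvJ T0 array of number 1, 148 without that of number 2, 79 to 88 when both 129X1/SvJ arrays of any 1 number were left out, and 319 without the array labelled Balb/c T1 number 2. Against single strains, 323 genes (2.83%) were called against A/J, 195 (1.71%) against Balb/c (351 without that array), 385 (3.37%) against C57BL/6J and 41 (0.359%) against DBA/2J. These comparisons share the 129X1/SvJ arrays. Within 129X1/SvJ, 86 of the 135 higher genes were called higher at T1, 22 were called lower and 27 were not called. Of the 88 lower genes, 78 were called lower at T1, 3 higher and 7 were not called. Of the 223 genes, 155 (69.5%) differed from the other strains more at T0 than at T1, against 45.1% of all genes. DBA/2J had the nearest response for 106 of the 135 higher genes (78.5%) and 67 of the 88 lower ones (76.1%), and also most often over all genes (34.1%).

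Il4 and Cish were among the largest of the higher responses. Il4 rose by 3.80 in 129X1/SvJ and by 1.85 on average in the others, a difference of 1.95 (SE 0.31, adjusted p = 0.000316). Its T0 mean was 6.85 ± 0.44 (SD, n = 3) in 129X1/SvJ and 6.89 in DBA/2J, but 9.72 in C57BL/6J, 10.29 in Balb/c and 10.61 in A/J. At T1 129X1/SvJ, DBA/2J, A/J, Balb/c and C57BL/6J stood at 10.65, 11.79, 10.80, 11.42 and 10.90. The strains thus differed widely before stimulation and by less after it. DBA/2J had a larger rise (4.90) than 129X1/SvJ. At T1 the DBA/2J arrays (11.61 to 11.94) all lay above the 129X1/SvJ arrays (10.44 to 10.88). Cish rose by 2.88 in 129X1/SvJ and 2.89 in DBA/2J, but by 0.38 in Balb/c, 0.74 in A/J and 0.99 in C57BL/6J (difference 1.63, SE 0.16, adjusted p = 2.34e-07). Its T0 mean was 6.82 in 129X1/SvJ and 6.66 in DBA/2J against 8.38 to 9.07 in the rest.

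Il4ra, the receptor chain for interleukin 4, moved in opposite directions. It rose by 0.79 in 129X1/SvJ, from 9.45 to 10.24, and gave -1.52 in Balb/c, -0.56 in C57BL/6J, -0.51 in A/J and 0.26 in DBA/2J. Socs1, an inhibitor of Janus kinases, rose by 1.21 against a mean of -0.15 in the others (difference 1.36, adjusted p = 0.000369), and Gbp5 by 1.29 against -0.04 (1.33, adjusted p = 0.00021). Of 25 feedback genes 6 had a higher response in 129X1/SvJ than the mean of the other 4 strains. None had a lower one, and 1.18% of all genes were higher. Besides Cish, Socs1 and Rgs1 (1.39) these were Socs3 (1.02), Dusp10 (1.00) and Sh2d2a (0.62). Dusp10 fell within 129X1/SvJ, so its higher response was a smaller fall than the others' mean. Il2ra had a difference of 1.08. In the STAT and Janus kinase list 4 of 17 were higher (23.5%, where 1.18% of all genes were), Stat5a (1.12), Irf1 (0.74), Stat3 (0.59) and Stat5b (0.38). Stat5b also fell within 129X1/SvJ, by less than the others' mean. The calls on Irf1, Stat3 and Stat5b were lost without single 129X1/SvJ arrays (adjusted p up to 0.168, 0.0699 and 0.15). Irf1 also lost it with its probe sets averaged (0.40, adjusted p = 0.325), without the filter (adjusted p = 0.0654) and after a second quantile normalization (adjusted p = 0.0841), and Stat5b without the filter. Socs3, Dusp10 and the STAT and IRF genes were named after their differences were seen. None of the genes of this paragraph was called against each of the other 4 strains. DBA/2J had the nearest response for 106 of the 135 higher genes. The responses given here are thus not shown to be particular to 129X1/SvJ.

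Other higher responses were of genes that fell on average in the other strains. Klrb1f, a receptor of the NK gene complex, changed by -0.73 in 129X1/SvJ and -2.79 on average in the others (difference 2.06), but its means in 129X1/SvJ, 5.24 and 4.51, both lay under the limit. Its own fall in 129X1/SvJ lost its call without any 1 of the 6 arrays (adjusted p up to 0.106). Sh3bp5, a partner of Btk, rose by 1.01 where the others' mean was -0.53 (1.54, adjusted p = 0.00021), and Abcb1b, a drug exporter, by 0.87 where it was -0.41 (1.28). Phlpp1, a phosphatase of the Akt kinase, rose by 0.53 against -0.68 (1.21). Gbp11 (difference 1.48) and Iigp1 (1.31), both interferon-induced GTPases, were not called within 129X1/SvJ and fell in the others. Their calls were each lost when single 129X1/SvJ arrays were left out, with adjusted p values up to 0.119 for Gbp11 and 0.127 for Iigp1. The smaller differences of Tbc1d30 (0.76), Mpzl1 (0.67) and Sh2d2a also lost their calls without single arrays (adjusted p up to 0.106, 0.0985 and 0.124).

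Lower responses included those of a cytokine and of genes that fell further. Il3, a growth factor of blood cell precursors, rose by 3.94 in 129X1/SvJ, from 3.20 to 7.14, against 5.40 in the others (difference -1.46, SE 0.27, adjusted p = 0.00178). A/J was alike at 4.05, and Balb/c, C57BL/6J and DBA/2J rose by 6.05, 5.79 and 5.72. All T0 means of Il3 lay under the limit in every strain, so this difference sits at T1. Ly6d gave -2.67 in 129X1/SvJ and -1.21 in the others (difference -1.46), with DBA/2J at -2.30. Pde5a, which degrades cyclic GMP, gave -2.36 against -0.98 (difference -1.37), but C57BL/6J and DBA/2J had it under the limit at both times. Without both 129X1/SvJ arrays of any 1 number its call was lost (adjusted p = 0.0541 to 0.108). Losses of the same kind were those of Il3 without number 2 (0.0838), Cd209d and Rgs1 without number 1 (0.0796 and 0.0844) and Dnajc15 without number 4 (0.0649). St6galnac1 (difference -1.31), Prg4 (-1.18), Cd209d (-1.19), Dnajc15 (-1.09) and Rasgrp3 (-1.23) were each higher in 129X1/SvJ than the others' mean at T0. Cd209d and Prg4 lay under the limit in each other strain at both times, so the other strains' responses were not measured above background. Rasgrp3 lost its call without the T1 array of number 2 or the T0 array of number 4 (adjusted p up to 0.0819). Fam111a (-1.53) lost its call without any 1 of 5 arrays (adjusted p up to 0.153), Tor3a (-1.13) without the T1 array of number 1 or the T0 array of number 2 (up to 0.0651), and Apobec1 (-1.06) without the T1 array of number 2 or either array of number 4 (up to 0.204).

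For 5 genes (0.0438%) the response of 129X1/SvJ differed with 1 sign from each of the other 4 strains, and with the numbered pairs as a block for 17. Wls, which carries Wnt proteins to the cell surface, rose by 1.04 in 129X1/SvJ, from 7.78 ± 0.09 to 8.82 ± 0.37 (SD, n = 3), and gave -0.53 in C57BL/6J, -0.12 in A/J and in Balb/c, and -0.05 in DBA/2J. Its level was also higher in 129X1/SvJ at both times, where the other strains lay between 5.62 and 6.15. BC018473 (named only by its clone) measured 9.08 at T0 and 10.79 at T1 in 129X1/SvJ, and 3.87 to 4.25 in the other strains at both times, under the limit. It passed the filter through 129X1/SvJ alone, so no response of the other strains was measured above background, and its place among the 5 rests on the rise within 129X1/SvJ. Whether sequence differences between strains alter the binding of such probes was not tested. Got1, an aspartate aminotransferase, rose by 1.56 against 0.22 to 0.70 in the others, and Dock10, a guanine nucleotide exchange factor, by 1.46 against 0.19 to 0.77. Both had their lowest mean in 129X1/SvJ at T0 and their highest at T1. At T1 their 129X1/SvJ arrays overlapped those of other strains, and the Dock10 means were 10.38 in 129X1/SvJ and 10.35 in DBA/2J. Prkag2, a subunit of the AMP-activated kinase, fell by 1.74 on the log2 scale against 0.55 to 0.72 in the others. At T0 its 129X1/SvJ arrays lay at 7.30 to 8.10, above every array of the other strains, and at T1 its mean of 5.90 lay near their 5.69 to 5.80. Without single 129X1/SvJ arrays between 2 and 6 genes met this rule, and 6 did without the array labelled Balb/c T1 number 2.

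**Figure D5:**
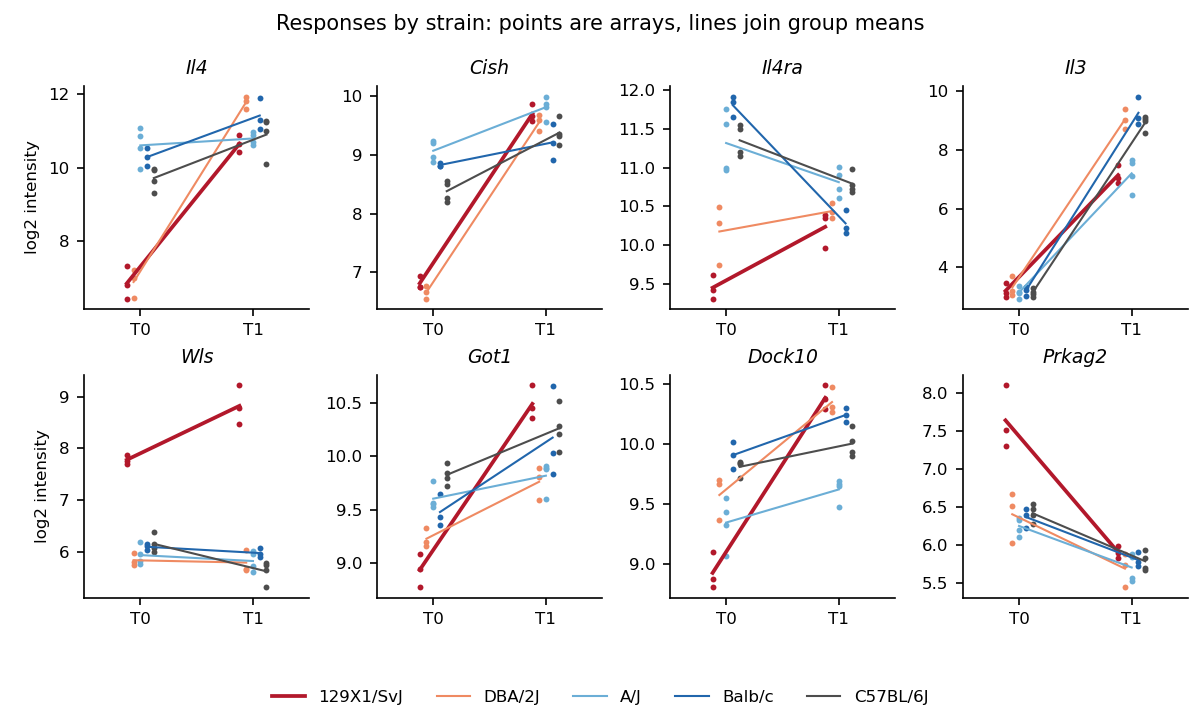
Log2 intensity (vertical axes) at T0 and T1 of 8 genes in 5 strains, with points for arrays and lines joining group means, 129X1/SvJ as the thick red line. Il4 and Cish start low in 129X1/SvJ and DBA/2J and end nearer to the other strains. Wls is high only in 129X1/SvJ, and Prkag2 starts high there and ends with the rest.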

How the data were processed

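The authors deposited log2 intensities, 1 value per probe set and array, made with RMA from Affymetrix arrays, per the submitters' processing notes. RMA corrects background, gives arrays like distributions and summarises probes. No source used here gives its version or the array's genome build. The number of arrays (3 per time) limits the precision.

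Of 35556 probe sets, 21789 had 1 gene symbol, 1621 several and 12146 none, and the last 2 kinds were left out. Names were matched to RefSeq genes of GRCm38.p6 for 21698 probe sets. Of 660 kept genes with several probe sets, 6 had calls in opposite directions, and none of these is named. limma 3.58.1 in R 4.3.3 was fitted to all 34 arrays as 10 groups (24 residual degrees of freedom), with Benjamini-Hochberg adjustment over 11413 genes, and was tested on simulated data. Contrasts were T1 minus T0 in 129X1/SvJ and this response minus that of the other strains. P-values set each difference against the spread between samples within the 10 groups.

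The numbers pair the 129X1/SvJ samples: deviations of its arrays from their group means correlated at 0.474, 0.445 and 0.41 for equal numbers and at -0.333 to -0.12 for unequal ones. The labels describe cells being split. Equal numbers correlated at 0.282 to 0.464 in C57BL/6J and 0.184 to 0.343 in Balb/c, above unequal ones (up to 0.124 and 0.07). In A/J they gave -0.078 to 0.258 and in DBA/2J 0.029 to 0.256, with unequal ones up to 0.256 and 0.076. Pairing was thus weaker in A/J and DBA/2J, and the block counts of strain differences rest on pairing all 5 strains. Main calls, list counts and SEs come from the fit that leaves the pairs out. The fit with the pairs as a block is the alternative.

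The members and gene lists were chosen with earlier results of these data known. Genes named were the 15 largest rises and falls, the 12 largest strain differences each way, up to 8 genes that differ from each strain or oppose it, 3 leading members of each list each way with its exceptions, and 14 genes always given. Alternatives covered the filter, a second quantile normalization, median centring, averaged probe sets, a trended robust fit, a test against 1 log2, single numbers and arrays left out, and the 129X1/SvJ arrays alone.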

Additional observations from a re-analysis of the deposited data

Results flagged for a closer look

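The response of 129X1/SvJ stood apart from the mean response of the other 4 strains by a test of the difference itself for 223 genes, and from each of the other strains for 5. The genes named in the text are given with the difference in log2. The higher responses with a difference over 1.3 were those of Klrb1f (2.06), Il4 (1.95), BC018473 (1.65), Cish (1.63), Sh3bp5 (1.54), Gbp11 (1.48), Rgs1 (1.39), Il4ra (1.37), Socs1 (1.36), Gbp5 (1.33) and Iigp1 (1.31). Next were Abcb1b (1.28), Wls (1.25), Phlpp1 (1.21), Stat5a (1.12), Got1 (1.09), Il2ra (1.08), Dock10 (1.06), Socs3 (1.02) and Dusp10 (1.00). Differences under 1 were those of Tbc1d30 (0.76), Irf1 (0.74), Mpzl1 (0.67), Sh2d2a (0.62), Stat3 (0.59) and Stat5b (0.38). For Dusp10 and Stat5b the higher response was a smaller fall. The lower responses were those of Apobec1 (-1.06), Dnajc15 (-1.09), Prkag2 (-1.12), Tor3a (-1.13), Prg4 (-1.18), Cd209d (-1.19), Rasgrp3 (-1.23), St6galnac1 (-1.31), Pde5a (-1.37), Ly6d (-1.46), Il3 (-1.46) and Fam111a (-1.53). Some of these are not measured differences between responses: Klrb1f lay under the limit of 5.327 at both times in 129X1/SvJ, and BC018473, Cd209d and Prg4 did at both times in each other strain, so their sizes have no order among the rest.

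Probe sets outside the gene comparisons also changed in 129X1/SvJ. Of 891 kept probe sets with several gene symbols, 286 (32.1%) were called, 150 higher and 136 lower at T1. Of 6663 kept probe sets with no symbol, 1973 (29.6%) were called, 1086 higher and 887 lower. Both shares lay below the 56.3% of the genes kept, and p-values were adjusted within each kind of probe set.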

How the results depend on the processing

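The count of genes called in 129X1/SvJ (6427) stayed within 1.5 times under every alternative run, from 5515 to 6234 when arrays or numbers were left out and at 6855 with the replicate block. The count with at least 1 log2 (2078) ran from 1949 to 2199 when arrays or numbers were left out and was 2082 with the replicate block, and the test against 1 log2 called 873. The strain difference was less stable. Its count of 223 was 350 with the replicate block, 78 within numbers 1 and 2, and 79 to 177 when arrays or numbers were left out. Leaving out the Balb/c T1 array of number 2 gave 319. The count of 5 genes apart from each strain was 17 with the replicate block, 8 after a second quantile normalization and 3 after centring. It was 1 to 6 when arrays or numbers were left out. A fit within numbers 1 and 2 leaves DBA/2J with 1 array per time. Both strain counts were lower in that fit, and they are not given for this reason. Fewer samples enter the fits that leave arrays out, and the cause of the other changes was not tested.

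Of 259 genes named for their response, 228 kept their side of the threshold and their direction under every alternative, and none of the called ones reversed. Of 38 named for a strain difference, 19 kept their call throughout. The second quantile normalization moved the median of all genes from -0.06 to 0.02. Medians of 6 lists with values near 0 changed sign in some alternatives, among them the Myc and Max network and cytokine mRNA decay. Low signal limits what can be said of 560 genes with both 129X1/SvJ means under 5.327.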
